A study of Mus musculus with 8 samples.

Results

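The FASTK family consists of mitochondrial RNA-binding proteins that share a pair of FAST domains and a RAP domain at the C-terminal end. Its 6 genes, Fastk, Fastkd1, Fastkd2, Fastkd3, Fastkd5 and Tbrg4 (which encodes FASTKD4), were taken by symbol after the Ensembl identifiers in the files were matched to GENCODE M21, and all 6 were among the 13226 genes tested, of 13227 in the files. The 4 FASTKD1 transgenic hearts carry the letters A, B, C and E in their labels and the 4 non-transgenic ones A, B, D and E, and all were whole hearts of FVB/N mice, an inbred strain, labelled male and 3 months old. The series title describes the overexpression as cardiac-specific; the sources used here do not name the promoter that drives the transgene, the species of its coding sequence or the number of founder lines. One library was made per heart and taken as 1 animal.

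Mitochondrial DNA is transcribed as long RNAs from both strands, which are cut into messenger, ribosomal and transfer RNAs and then stabilised, matured or degraded one by one. FASTK family proteins act at these steps, each on its own set of transcripts, mostly as shown in human cell lines. FASTK has a mitochondrial form needed for the ND6 messenger and another form outside mitochondria, FASTKD1 has been tied to the level of the ND3 messenger, FASTKD2 acts on the large ribosomal RNA and on ribosome assembly, FASTKD4 stabilises several messengers, and FASTKD5 is needed to release messengers whose ends are not marked by transfer RNAs. FASTKD3 has been tied to messengers of respiratory complexes. In the heart, where mitochondria fill much of the muscle cell, the products of these messengers are subunits of the respiratory chain.

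Library totals ran from 44584359 to 55769859 counts in transgenic hearts and from 45802079 to 50830215 counts in non-transgenic hearts. A two-sided exact permutation test of the totals gave p = 0.914, over 70 arrangements whose smallest p is 0.0286. All 9 cardiomyocyte markers were measured, and their summed level was 55098.1 to 57417.9 CPM (counts scaled to a common library size) in transgenic hearts against 66470.9 to 78414.4 CPM in non-transgenic hearts, without overlap (exact permutation p = 0.0286, 0.2 after Benjamini-Hochberg adjustment over 7 marker lists). All 9 had log2 fold changes below 0, beside 6455 of all 13226 tested genes. Of the 9, 7 had an unadjusted edgeR p under 0.05, beside 10.7% of all tested genes, and 0 had an adjusted p under 0.05. Pln, which encodes phospholamban, and Tnnt2, which encodes cardiac troponin T, passed with DESeq2 (adjusted p = 0.00544 and 0.00397), and Pln also with library totals as the only scaling (edgeR adjusted p = 0.0326). The part of this difference in the results that follow was not tested. In whole tissue, fewer cells of a type and less RNA per cell cannot be told apart. Summed atrial markers (7 of 8 measured) stood at 3325.43 CPM in transgenic heart A and 633.9 CPM in non-transgenic heart D, against 36.2 to 287.7 CPM in the other transgenic and 32.0 to 115.7 CPM in the other non-transgenic hearts. The other 5 lists, of endothelial, fibroblast, smooth muscle, leukocyte and red blood cell markers, had exact permutation p of 0.0857 to 0.686. Among their genes, the smooth muscle actin gene Acta2 stood at 267 ± 75.4 CPM in transgenic hearts and 131 ± 30.5 CPM in the non-transgenic ones (SD, n = 4 each). Its groups did not overlap (edgeR adjusted p = 0.0505, 0.000128 with DESeq2 and 0.0441 with limma-voom). Without non-transgenic heart A its edgeR adjusted p was 0.183. The 6 smooth muscle markers measured ran from -0.26 to 1.03 on the log2 scale, with a median of 0.13 and Acta2 the highest. The 4 red blood cell markers stood between -0.73 and -0.67 on the log2 scale, each with an unadjusted edgeR p under 0.05. The library labelled non-transgenic heart D, called heart D here, is also labelled male and held 0 counts of 4 Y-linked genes, where the other 7 hearts held 10372 to 15914. Its sex label thus goes against its counts, and its genotype label may be in doubt too. It is kept under its label in every value with n = 4, and the fold changes of the members are also given without it.

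The annotated start regions of the endogenous genes differ within the family. RefSeq windows on GRCm38.p6, from 250 bases before to 50 bases after the annotated start, were found for all 6 members. GC content was 70.7% for Fastkd3, 65.7% for Fastk, 64.7% for Tbrg4, 47.7% for Fastkd5, 44.3% for Fastkd2 and 37.0% for Fastkd1, beside a median of 61.0% over the windows of 10061 tested genes. The RefSeq start of Fastkd1 lies 910 bases inside the GENCODE start, so its window is not the region at the GENCODE start; for the other members the 2 starts differ by 0 to 52 bases. The windows of Fastk and Tbrg4 are shown because these members varied most alike between hearts, and that of Fastkd1 because it is the gene the transgene is named for. Capitals mark CCGGAAG, the core bound by ETS factors, on either strand.
Fastk, chr5:24445186-24445485, minus strand: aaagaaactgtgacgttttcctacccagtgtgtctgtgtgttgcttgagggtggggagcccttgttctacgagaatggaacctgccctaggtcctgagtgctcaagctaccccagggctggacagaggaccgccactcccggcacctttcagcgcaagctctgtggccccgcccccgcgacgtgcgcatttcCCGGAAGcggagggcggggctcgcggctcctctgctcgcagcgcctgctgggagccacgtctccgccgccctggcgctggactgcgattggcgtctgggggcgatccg
Tbrg4, chr11:6626018-6626317, minus strand: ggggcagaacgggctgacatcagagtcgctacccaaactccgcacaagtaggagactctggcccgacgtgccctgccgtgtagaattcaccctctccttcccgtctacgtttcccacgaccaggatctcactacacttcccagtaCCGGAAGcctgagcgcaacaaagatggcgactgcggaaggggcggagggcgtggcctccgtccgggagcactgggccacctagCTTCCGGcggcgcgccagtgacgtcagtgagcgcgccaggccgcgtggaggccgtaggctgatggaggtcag
Fastkd1, chr2:69712557-69712856, minus strand: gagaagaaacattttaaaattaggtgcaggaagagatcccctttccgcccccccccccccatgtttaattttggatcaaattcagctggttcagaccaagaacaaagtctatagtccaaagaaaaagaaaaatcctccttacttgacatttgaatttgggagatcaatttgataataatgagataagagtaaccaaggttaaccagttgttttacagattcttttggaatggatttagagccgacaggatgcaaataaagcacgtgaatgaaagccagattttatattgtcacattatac
The core begins at -58 in Fastk and at -105 and -22 in Tbrg4, counted from the RefSeq start, and at -13 in Fastkd5. These 3 of 6 members compare with 17.8% of the windows of tested genes. Among 8 other motifs searched on both strands, GCGCA occurred in 4 members (52.0% of windows), CCAAT in 3 (38.4%) and TGACG in 3 (31.7%). TATAAA occurred in Fastkd1 and Fastkd2 (7.35%) and the E-box CACGTG in Fastkd1 (10.3%). In Fastkd1 these matches lie after the RefSeq start, with TATAAA on the opposite strand. Tbrg4 alone held AAGATGGCG, the YY1 core (3.24%), and TGACGTCA, which contains TGACG (3.21%), and 0 of 6 held the NRF1 palindrome, in which GCGCA is followed directly by its reverse complement (2.06%). A match in a window says nothing of binding. Fastkd5 also holds CCGGAAG, and its variation within genotypes correlated at -0.06 with that of Fastk and at 0.21 with that of Tbrg4. The part of any motif in how the members varied between hearts was not tested.

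Fastkd1 was the member that differed between the genotypes. Fastkd1 (ENSMUSG00000027086, chromosome 2, 69686815 to 69713516, minus strand, GRCm38) had 10026 CPM in transgenic heart A, 9341.5 in B, 8845 in C and 11516 in E, against 26.3 CPM in non-transgenic heart A, 30.2 in B, 192 in D and 33.8 in E. Every transgenic heart lay above every non-transgenic heart, and heart D lay apart from its own group. The mean was 9932 ± 1162 CPM in the transgenic group and 70.5 ± 80.9 CPM in the non-transgenic group (SD, n = 4 each), a log2 fold change of 7.14 (SE 0.75, 95% interval 5.46 to 8.81; edgeR adjusted p = 0.000684). Without heart D the non-transgenic mean was 30.1 ± 3.75 CPM (SD, n = 3), the ratio of means was 330-fold in place of 141-fold, and the log2 fold change was 8.36 (SE 0.18). Of all 13226 tested genes 1.25% passed the edgeR threshold of an adjusted p under 0.05, 1.01% higher and 0.242% lower, and the groups did not overlap for 7.38% (4.58% higher and 2.8% lower). Within the family 1 of 6 members passed, and the same 1 had no overlap. That member was Fastkd1, the gene overexpressed by design, so its call is a check of the transgene and not a result about the family. The other 5 members did not pass.

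The files give 1 count per gene, so reads of the transgene and of the mouse's own Fastkd1 were not separated. Fastkd1 took between 0.938% and 1.2% of all counts in transgenic hearts. It ranked 8 to 12 among all tested genes by CPM there, against ranks of 3889 to 4798 in the non-transgenic hearts other than D and 573 in heart D. The level in heart D was 1.93% of the transgenic mean, and in the other non-transgenic hearts it was 0.265% to 0.340%. Vmn2r3, a vomeronasal receptor gene counted 784 to 1550 times in the transgenic hearts, had 1 count in heart D and 1 count over the other 3 non-transgenic hearts. The 0 Y-linked counts in heart D allow a share of up to 0.0242% of the mean in the other 7 hearts (3 counts, counting error only). The atrial markers that stood high in heart D stood higher still in transgenic heart A. Because reads of the transgene were not separated, the Fastkd1 level of transgenic heart A cannot show what atrial tissue adds. The part of atrial tissue in the Fastkd1 level of heart D was not tested.

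**Figure D1:**
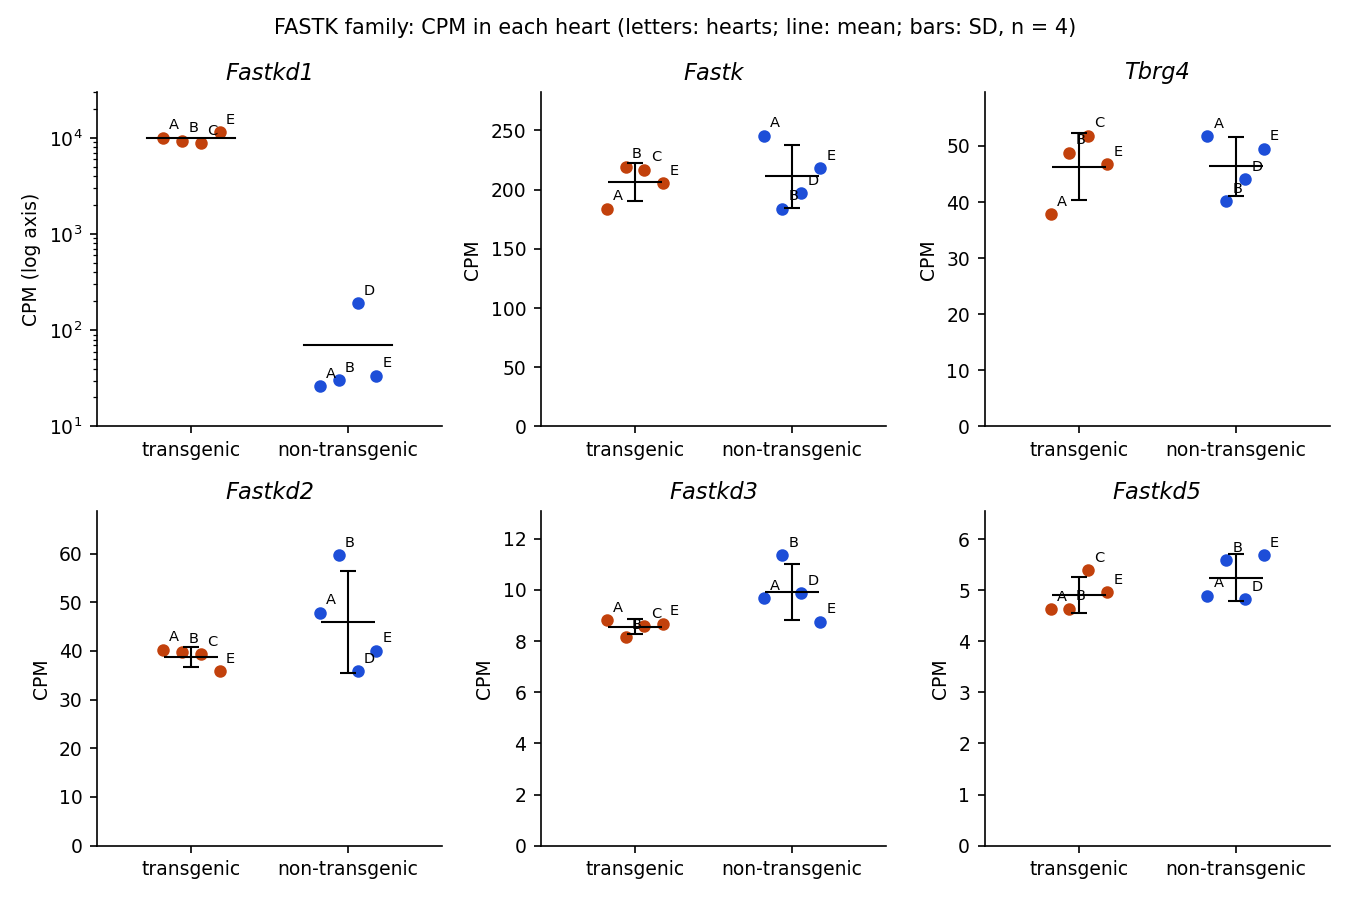
CPM of the 6 family members in each heart, transgenic at the left and non-transgenic at the right of each panel, with letters naming hearts, a line for the mean and bars for the SD (n = 4 each; no SD in the Fastkd1 panel, which has a log axis). Fastkd1 lay at 8845 to 11516 CPM in transgenic hearts and at 26.3 to 192 CPM in non-transgenic hearts, while the groups overlapped for each of the other 5 members.

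The 5 other members were not called in either direction, and each had overlapping groups. Fastk (ENSMUSG00000028959, chromosome 5, 24438440 to 24445287, minus strand), the founding member, had 184, 219, 217 and 205 CPM in the transgenic hearts (A, B, C, E), against 246, 184, 197 and 218 CPM in the non-transgenic ones (A, B, D, E). The transgenic hearts lay wholly within the non-transgenic range. Its log2 fold change was -0.03 (SE 0.11, 95% interval -0.28 to 0.21; edgeR adjusted p = 0.952).

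Tbrg4 (ENSMUSG00000000384, chromosome 11, 6615598 to 6626067, minus strand), whose product stabilises mitochondrial messengers, had 37.9, 48.8, 51.8 and 46.7 CPM in the transgenic hearts (A, B, C, E), against 51.7, 40.1, 44.0 and 49.5 CPM in the non-transgenic ones (A, B, D, E). The lowest and the highest heart of all 8 were both transgenic. Its log2 fold change was -0.0017 (SE 0.12, 95% interval -0.27 to 0.26; edgeR adjusted p = 0.996).

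Fastkd2 (ENSMUSG00000025962, chromosome 1, 63730614 to 63754655, plus strand), whose product acts on the large mitochondrial ribosomal RNA, had 40.3, 39.8, 39.3 and 35.8 CPM in the transgenic hearts (A, B, C, E), against 47.9, 59.7, 35.9 and 40.045 CPM in the non-transgenic ones (A, B, D, E). The transgenic hearts lay close together at a coefficient of variation of 5.28%, while the non-transgenic hearts spread at 22.9%, with heart B highest and heart D lowest. Its log2 fold change was -0.24 (SE 0.15, 95% interval -0.57 to 0.08; edgeR adjusted p = 0.636). It was -0.09 without non-transgenic heart B and -0.35 without heart D, in neither case past the threshold. The share of counts from the 11 mitochondrially encoded genes counted was 27.0% in A, 24.0% in B, 23.0% in E and 21.9% in C among transgenic hearts. Among non-transgenic hearts it was 30.1% in B, 25.3% in A, 21.2% in E and 18.6% in D, and there its order was that of Fastkd2. The part of that share in the Fastkd2 values was not tested.

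Fastkd3 (ENSMUSG00000021532, chromosome 13, 68582234 to 68592338, plus strand), tied to messengers of respiratory complexes, had 8.81, 8.16, 8.59 and 8.68 CPM in the transgenic hearts (A, B, C, E), against 9.68, 11.4, 9.87 and 8.76 CPM in the non-transgenic ones (A, B, D, E). Transgenic heart A lay just above non-transgenic heart E, and otherwise the transgenic hearts lay below. Its log2 fold change was -0.21 (SE 0.10, 95% interval -0.44 to 0.02), the smallest p of the 5 (unadjusted p = 0.0683 and adjusted p = 0.517, both from edgeR).

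Fastkd5 (ENSMUSG00000079043, chromosome 2, 130613840 to 130630027, minus strand), which encodes the processing factor, had 4.63, 4.64, 5.39 and 4.96 CPM in the transgenic hearts (A, B, C, E), against 4.90, 5.58, 4.82 and 5.69 CPM in the non-transgenic ones (A, B, D, E). These values rest on 204 to 319 counts per heart, the fewest of the family, and the groups overlapped over most of their range. Its log2 fold change was -0.10 (SE 0.12, 95% interval -0.35 to 0.16; edgeR adjusted p = 0.840).

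All 5 intervals include 0. For Fastk, Tbrg4 and Fastkd5 they lie between 0.782-fold and 1.2-fold, and for Fastkd2 and Fastkd3 they reach down to 0.676-fold and 0.736-fold and up to 1.06-fold and 1.01-fold. Leaving out heart D, the fit gave log2 fold changes of -0.07 for Fastk, -0.03 for Tbrg4, -0.35 for Fastkd2, -0.22 for Fastkd3 and -0.14 for Fastkd5 (edgeR adjusted p of 0.28 to 0.926). Summed over the 5 and all hearts, the level was 305 ± 21.7 CPM in the transgenic group and 319 ± 30.2 CPM in the non-transgenic group (SD, n = 4 each). The median log2 fold change of all 6 members was -0.06, beside 0.0057 over all genes tested.

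**Figure D2:**
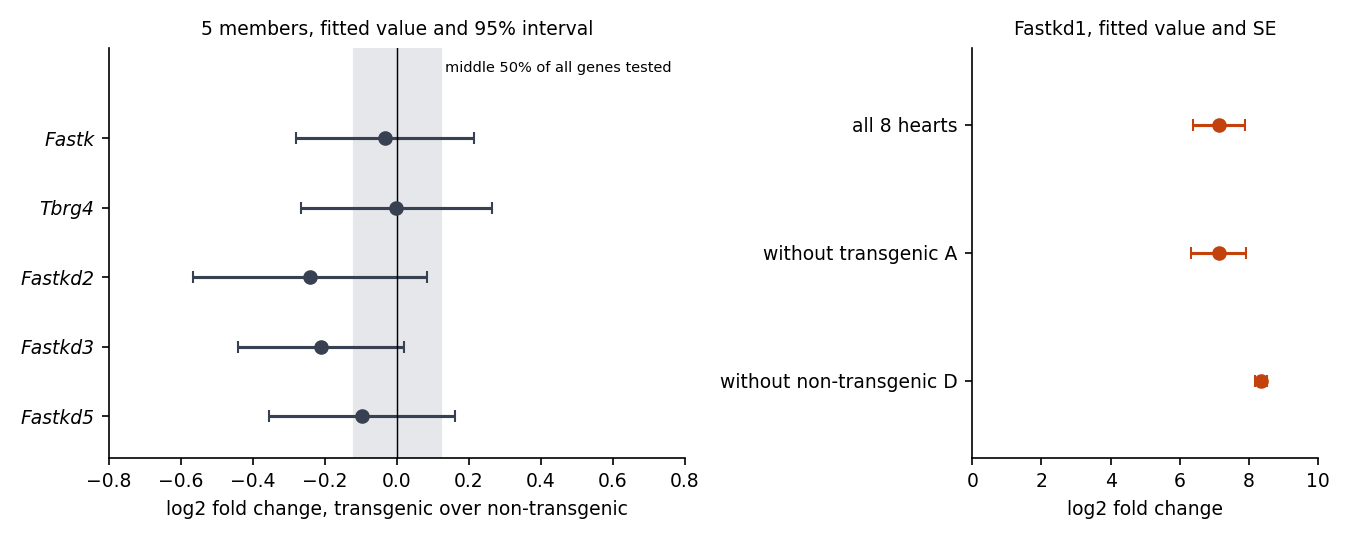
Fitted log2 fold change of transgenic over non-transgenic hearts: at the left, 5 members with 95% intervals and, in grey, the middle 50% of all tested genes (-0.12 to 0.12); at the right, Fastkd1 with its SE for all 8 hearts, without transgenic heart A and without non-transgenic heart D. The 5 intervals all include 0, and Fastkd1 stands at 7.14, 7.13 and 8.36.

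Compared per kilobase of annotated exon, the levels of the members spanned more than an order of magnitude, with Fastk the highest after Fastkd1 in transgenic hearts and the highest in non-transgenic hearts. In transgenic hearts Fastkd1 stood at 1697 ± 198 CPM per kilobase, 36.0-fold above Fastk at 47.2 ± 3.68 (SD, n = 4). Tbrg4 followed at 12.5 ± 1.63, Fastkd2 at 6.61 ± 0.349, Fastkd3 at 1.64 ± 0.0543 and Fastkd5 at 1.63 ± 0.119. The length used for Fastkd1 is that of the mouse's own gene, while reads of the transgene were not separated. Fastkd1 stood 54.8-fold above Fastk with the longest transcript as the length, and 31.6-fold with the longest coding sequence. In non-transgenic hearts Fastk stood at 48.3 ± 6.15 CPM per kilobase, Tbrg4 at 12.5 ± 1.42, Fastkd2 at 7.81 ± 1.79, Fastkd3 at 1.90 ± 0.208 and Fastkd5 at 1.74 ± 0.15 (SD, n = 4). There Fastkd1 ranked 4 in hearts A, B and E, at 5.14 ± 0.64 CPM per kilobase (SD, n = 3), and 2 in heart D; with heart D its mean was 12.0 ± 13.8.

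Fastk exceeded Tbrg4, Tbrg4 exceeded Fastkd2 and Fastkd2 exceeded Fastkd3 in 4 of 4 hearts of each genotype. Fastkd3 exceeded Fastkd5 in 3 of 4 hearts of each genotype, and these neighbours in the order were not separated. With the longest coding sequence as the length, Fastkd3 exceeded Fastkd5 in 4 of 4 non-transgenic hearts (5.001 against 2.17 CPM per kilobase), and Tbrg4 exceeded Fastkd2 in 3 of 4 (24.5 against 22.2).

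Of the family's summed level per kilobase, Fastkd1 made up 96.0% ± 0.629 in transgenic hearts (SD, n = 4), against 5.21% in non-transgenic heart A, 7.14% in B, 7.27% in E and 33.0% in D. Among the other 5 members, Fastk held 67.8% ± 0.574 of the level per kilobase in the transgenic group and 66.7% ± 2.72 in the non-transgenic group (SD, n = 4 each). Tbrg4 held 16.4% to 19.0% in transgenic hearts and 16.2% to 18.2% in non-transgenic hearts.

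**Figure D3:**
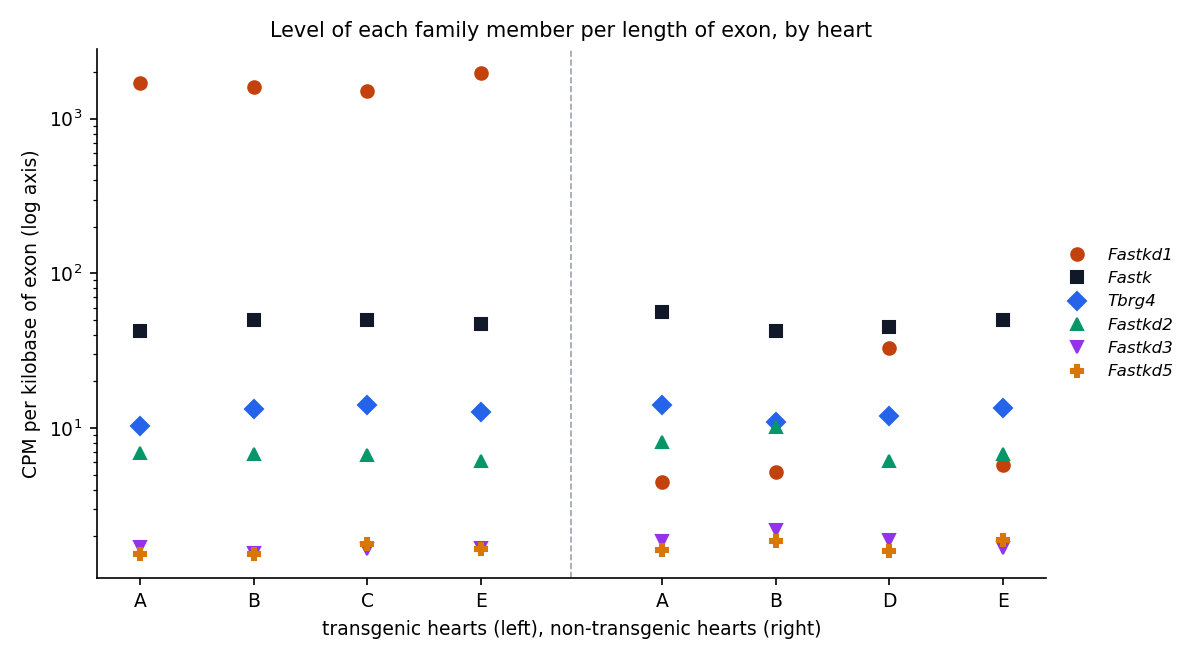
CPM per kilobase of annotated exon (log axis) for each member in the 4 transgenic hearts at the left and the 4 non-transgenic hearts at the right. Fastk, Tbrg4 and Fastkd2 keep their order in all 8 hearts, and Fastkd1 stands at 1511 or more in transgenic hearts and at 32.8 or less in non-transgenic hearts.

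Within genotypes, the members did not vary together as a family. The deviation of each heart's log2 CPM from its own genotype mean was most alike for Fastk and Tbrg4 (Pearson r = 0.92 over 8 hearts, given as a description). Both were lowest in transgenic heart A, at -0.16 and -0.28 on the log2 scale, and in non-transgenic heart B, at -0.19 and -0.20, and highest among non-transgenic hearts in A, at 0.23 and 0.17. Fastkd2 and Fastkd3 were alike at r = 0.66, with non-transgenic heart B highest for both, at 0.41 and 0.20. Over the 15 pairs of members r ran from -0.70 (Fastkd1 with Fastkd2) to 0.92, and Fastk with Fastkd3 stood at -0.64. The points of each pair share their libraries and depth, and Fastkd1 departs mainly in heart D, by 2.01 on the log2 scale.

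The same measure was used to name the 3 tested genes most like each member. For Fastk these were G6pc3, Mcrip2 and Ipo13 (each r = 0.98), and for Tbrg4 Phb2, a prohibitin of the inner mitochondrial membrane, Map7 and 2310061I04Rik (each r = 0.97). For Fastkd2 they were Wdr36, Ranbp6 and Aasdhppt (r = 0.99 or more), and for Fastkd3 Xpc, a DNA repair gene, Arl6ip1 and Colec11 (r = 0.97 to 0.99). For Fastkd5 they were Gm10516, Slc25a46, which encodes a mitochondrial outer membrane protein, and Gm10602 (r = 0.94 to 0.98). For Fastkd1, whose pattern rests on heart D, they were Dach1, Tmsb10 and Mlkl (r = 0.97 to 0.99). None of these 18 genes passed the edgeR threshold between genotypes (adjusted p from 0.598 to 0.996). Each was picked for the highest r among all tested genes, over few hearts. Such picking favours high values whether or not genes are regulated together. The r it would give for genes outside the family was not tested, so these values cannot show shared regulation or a shared mitochondrial role.

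**Figure D4:**
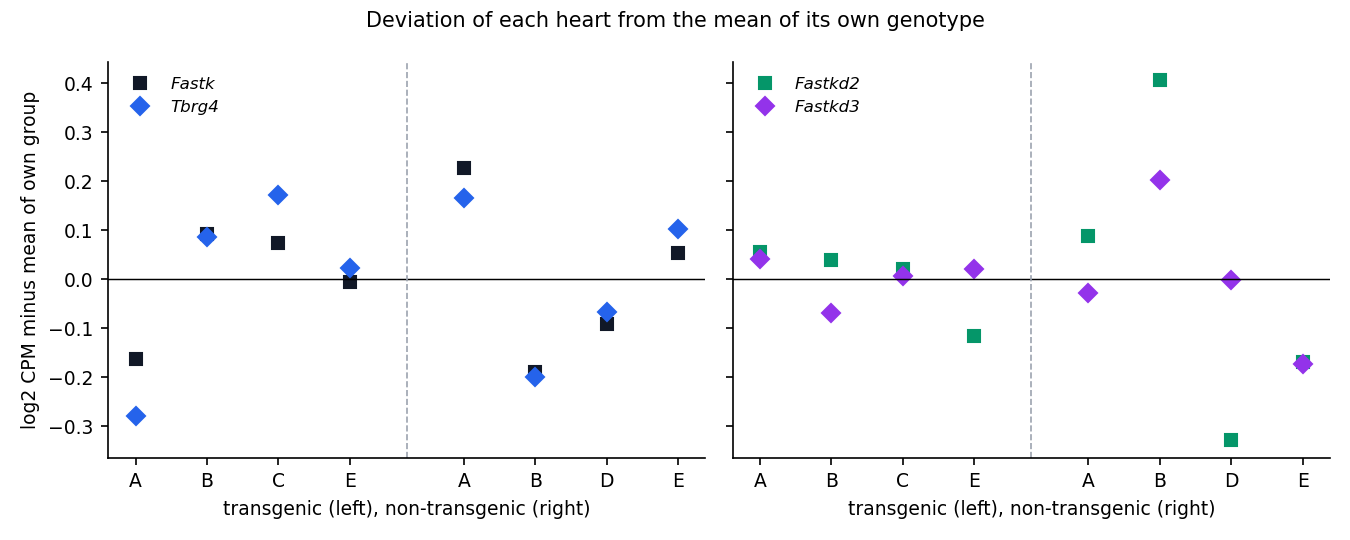
Deviation of log2 CPM from the mean of the own genotype for Fastk with Tbrg4 (left panel) and Fastkd2 with Fastkd3 (right panel), transgenic hearts left and non-transgenic hearts right of the dashed line. Fastk and Tbrg4 fall together in transgenic heart A and non-transgenic heart B, the heart in which Fastkd2 and Fastkd3 are highest.

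Genes next to the members in the genome were not called either. Klhl41, a kelch protein gene of striated muscle, and Ppig, a cyclophilin gene, are the nearest tested genes on the 2 sides of Fastkd1, with log2 fold changes of -0.06 (95% interval -0.35 to 0.24) and -0.0016 (-0.26 to 0.26), beside 7.14 for Fastkd1. Fastkd3 and Mtrr, which encodes methionine synthase reductase, start 85 bases apart on opposite strands. Mtrr averaged 21.7 ± 1.96 CPM in the transgenic group and 19.2 ± 1.57 CPM in the non-transgenic group (SD, n = 4 each), a log2 fold change of 0.17 (95% interval -0.05 to 0.40) beside -0.21 for Fastkd3. The 14 tested neighbours and overlapping genes had edgeR adjusted p of 0.622 to 0.996. The count of Fastkd5 is uncertain because the gene lies within Ubox5 on the same strand (7.24 ± 0.471 CPM in transgenic and 7.49 ± 1.38 CPM in non-transgenic hearts), and part of Fastk overlaps Slc4a2 on the opposite strand (25.1 ± 2.69 and 22.0 ± 4.13 CPM), while the sources used here do not say whether counting used strand.

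The genes that work with the family in mitochondrial RNA metabolism were followed as lists, and 0 of their tested members passed the edgeR threshold, as under each alternative that could be fitted. An unadjusted p under 0.05, counted below for each list, was found for 1421 of all 13226 genes (10.7%). The groups did not overlap for 7.38% of all genes. In the lists this held for 1 of 18 genes of ribosome assembly, 2 of 20 of processing and modification, 2 of 9 of polyadenylation and decay, and 2 of 14 of transcription and the nucleoid. It held for 0 genes of the other lists. Of 18 genes of ribosomal RNA maturation and ribosome assembly, where FASTKD2 acts, 0 passed and 0 had an unadjusted p under 0.05. The median log2 fold change was -0.12, beside 0.0057 over all genes tested, and 17 of 18 lay below 0, beside 6455 of all 13226. With library totals as the only scaling 12 of 18 lay below 0, beside 4329 of all 13226. The median was then -0.04, beside 0.08 over all genes. Leaving out 1 heart moved the median to between -0.17 (without non-transgenic heart E) and -0.05 (without non-transgenic heart B). The pseudouridine synthase gene Rpusd4 had the smallest p, with 13.1 ± 0.866 CPM in the transgenic group and 15.1 ± 2.40 CPM in the non-transgenic group (SD, n = 4 each; edgeR adjusted p = 0.614). Rcc1l was next, with 22.0 ± 0.655 and 24.1 ± 1.66 CPM and no overlap between the groups (edgeR adjusted p = 0.655).

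Of 9 genes of the RNA granule and of messenger stability 0 passed and 0 had an unadjusted p under 0.05 (median -0.09, between -0.14 without heart D and -0.03 without non-transgenic heart B). Lrpprc, whose product holds messengers stable, stood at 0.02 and Grsf1, the granule protein, at -0.03 on the log2 scale. Ptcd3 and Ptcd1, which encode pentatricopeptide repeat proteins, had the smallest p, at -0.25 and -0.11 (edgeR adjusted p = 0.661 and 0.732). Of 20 genes of transcript processing and modification 0 passed and 2 had an unadjusted p under 0.05 (median 0.07, and 0.013 without non-transgenic heart A). These were Trmt5, a transfer RNA methyltransferase gene, at -0.43 (28.4 ± 3.25 CPM in transgenic and 38.2 ± 6.45 CPM in non-transgenic hearts, n = 4 each with SD; edgeR adjusted p = 0.239) and Pus1, a pseudouridine synthase gene, at 0.32 (13.8 ± 1.09 and 11.1 ± 1.19 CPM; edgeR adjusted p = 0.317).

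Of 9 genes of polyadenylation and decay 0 passed and 2 had an unadjusted p under 0.05 (median 0.0064, between -0.04 without transgenic heart C and 0.06 without non-transgenic heart B). Rexo2, an oligoribonuclease gene, stood at 0.18 and the nuclease gene Endog at -0.25, with edgeR adjusted p of 0.424 and 0.453. Of 14 genes of transcription and the nucleoid 0 passed and 2 had an unadjusted p under 0.05 (median -0.06, between -0.12 without non-transgenic heart E and -0.014 without non-transgenic heart B). They were Top1mt, the mitochondrial topoisomerase gene, at -0.45 and Mterf2 at -0.44, with edgeR adjusted p of 0.251 and 0.418. Of 6 genes tied to FASTK outside mitochondria, such as Tia1 and the death receptor gene Fas, 0 passed and 0 had an unadjusted p under 0.05 (median 0.03, between -0.06 without non-transgenic heart A and 0.09 without heart D). Faim and Fas had the smallest p, at 0.22 and -0.15 (edgeR adjusted p = 0.614 and 0.835).

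Of 11 tested mitochondrially encoded genes, 9 messengers and ribosomal RNAs were on the list of the family's substrates. Of these 9, 0 passed and 1 had an unadjusted p under 0.05 (median -0.06, but 0.15 without non-transgenic heart B and -0.21 without heart D). That gene, mt-Co1, had 65640 CPM in transgenic heart A, 55290 in B, 52360 in C and 52520 in E, against 87160 CPM in non-transgenic heart A, 114100 in B, 55190 in D and 67150 in E. Non-transgenic heart D lay among the transgenic hearts, and the fitted difference on the log2 scale was -0.52 (SE 0.20, edgeR adjusted p = 0.388). It was -0.67 without heart D (edgeR adjusted p = 0.108) and -0.31 without non-transgenic heart B, the highest (edgeR adjusted p = 0.488). The substrate of FASTK, mt-Nd6, stood at 0.16 (95% interval -0.34 to 0.66), where without strand its reads cannot be told apart from those of the opposite strand, and the large ribosomal RNA mt-Rnr2, bound by FASTKD2, at -0.30 (-0.77 to 0.18). After mt-Co1, mt-Nd5 had the smallest p, at 0.39 (edgeR adjusted p = 0.602). The other 2 tested genes were the transfer RNA genes mt-Tc at -0.63 and mt-Tp at -0.40 (edgeR adjusted p = 0.367 and 0.562). The list was fixed at 15 genes, of which only 9 were present in the counts. The messenger tied to FASTKD1, mt-Nd3, was not among the 11 mitochondrially encoded genes counted.

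**Figure D5:**
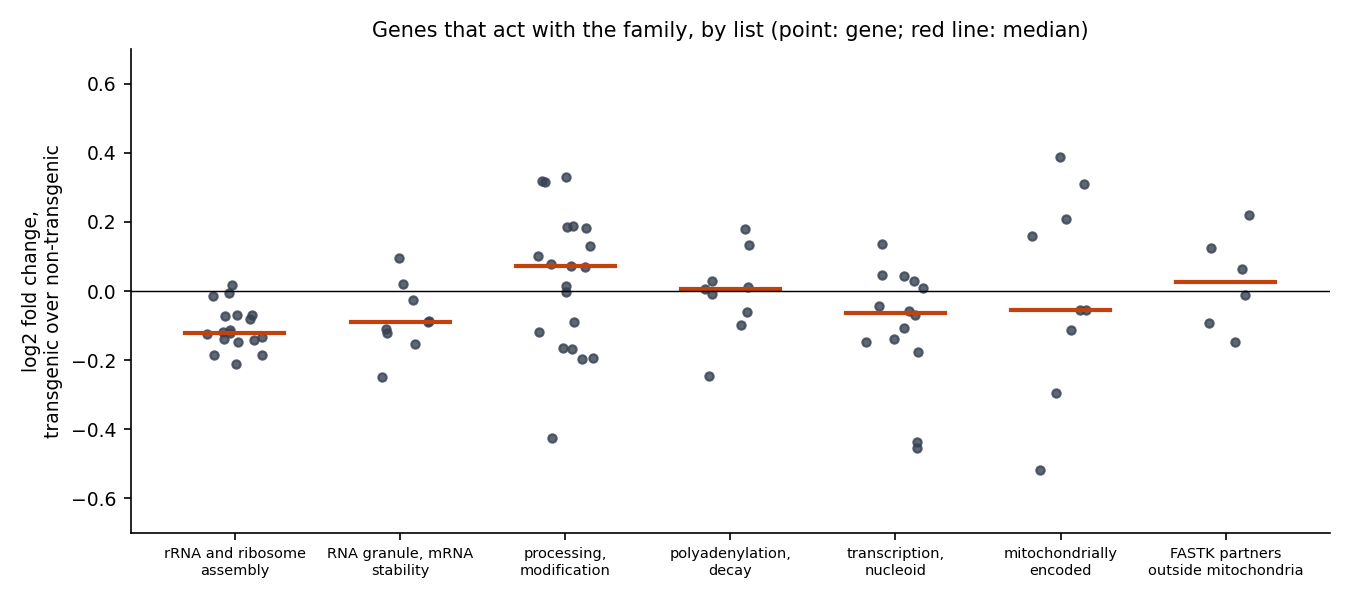
Fitted log2 fold change, transgenic over non-transgenic hearts, of each tested gene (points) in 7 lists of genes that act with the family, with the median of each list as a red line. The medians lie between -0.12 and 0.07, and 0 genes of these lists passed the edgeR threshold, beside 1.25% of all tested genes.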

How the data were processed

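RNA was measured by sequencing in 8 mouse hearts. The deposited values are counts, whole and not normalized, with a file for each heart and a row for each Ensembl gene, as the authors left them. Cutadapt 1.15 and TopHat2 with GRCm38 (mm10) are named per the submitters' processing notes; the sources used here do not name the read counter, its annotation or its use of strand. Symbols, coordinates and exon lengths came from GENCODE M21, in which 7 identifiers had no entry, and start windows from RefSeq.

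Counts were fitted in R 4.3.3 with edgeR 4.0.16: filterByExpr, TMM scaling, and the quasi-likelihood test over all 13226 genes, two-sided, with Benjamini-Hochberg adjustment at 0.05. The SE and 95% interval were worked back from the F statistic. CPM use TMM library sizes, and log2 CPM a prior count of 2. Limits from counts cover counting error only. The fit was tested on simulated data. Alternatives used other scalings and filters, DESeq2 1.42.0, limma 3.58.1, a block on title letters, and fewer hearts.

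The labels do not say that hearts came from separate litters, so p-values measure the spread between these samples. No pair of libraries within a group was a repeat (lowest chi-square over its degrees of freedom 19.7). The members and lists were chosen with earlier results of these data known. Named by rule were all members, list genes past the threshold or the 2 with the smallest p, tested genes adjoining or overlapping members, and 3 genes by likeness; Lrpprc, Grsf1, Tia1, mt-Nd6, mt-Rnr2, mt-Tc, mt-Tp, Pln, Tnnt2, Acta2 and Vmn2r3 were added after their values were seen.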

Additional observations from a re-analysis of the deposited data

Results flagged for a closer look

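Fastkd1 in non-transgenic heart D stood apart from the other 3 non-transgenic hearts: its gap to the nearest of them was 0.955 of the range of the group, at 192 CPM beside 26.3 to 33.8 CPM. Without that heart the log2 fold change was 8.36 in place of 7.14. Summed atrial markers stood apart in transgenic heart A, at 3325.43 CPM with a gap of 0.923 of the range, and in non-transgenic heart D, at 633.9 CPM with a gap of 0.861 of the range. Each gap is above the 95% critical value of Dixon's test for 4 values, 26 groups of 4 values were checked, and chance flags about 1 in 20.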

How the results depend on the processing

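Under 19 alternatives Fastkd1 stayed past the threshold, with log2 fold changes of 6.86 to 8.42 and adjusted p of at most 0.00425, and 1 of 6 family members passed in each. None of the other 5 members passed in any, with adjusted p of 0.278 to 0.998. Fastkd2, Fastkd3 and Fastkd5 kept their sign. Fastk, at -0.03, stood at 0.041 with library totals only, and leaving out 1 heart gave -0.0938 to 0.0474. Tbrg4, at -0.0017, stood at 0.0715 with library totals only and at 0.0592 with hearts D (non-transgenic) and A (transgenic) both left out, and leaving out 1 heart gave -0.0721 to 0.0831. The cause was not tested. Over all genes, 133 were called higher and 32 lower. DESeq2 called 408, with 249 higher and 159 lower. With both those hearts left out 276 were called, 106 of them lower. Leaving out 1 heart gave 112 to 218 calls, of which 103 to 168 were higher and 9 to 72 lower (9 without transgenic B, 14 without transgenic C, 10, 50 and 72 without non-transgenic A, B and D). The replicate block on title letters gave Fastkd1 8.42, with 21 genes lower and 124 in all. Letter C occurs only among transgenic hearts and D only among non-transgenic hearts, so these hearts add nothing to the genotype difference in that fit. No label says that a title letter pairs animals, so the letters were not taken as pairs. Same-lettered hearts had correlated deviations of 0.30 (A), -0.09 (B) and 0.36 (E). Hearts of different letters were not compared, so these values cannot show whether the letters pair animals. With the longest transcript or coding length, Tbrg4 ranked 3 and Fastkd1 ranked 2 in non-transgenic hearts with heart D included, in place of 2 and 3. Mitochondrially encoded genes gave no value in the fit without them. Fastkd5 rests on 204 to 319 counts per heart, the fewest of the family.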
